A study of Ovis aries with 6 samples.

Results

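The DEAD box and DEAH box RNA helicases are proteins that use ATP to open or remodel RNA, and their genes were followed here in ovaries of a pair of sheep (Ovis aries) breeds. Members were taken by symbol: every gene of the deposited table named DDX or DHX followed by a number and at most 1 letter. The rule gave 43 of 14480 genes, 27 named DDX and 16 named DHX, each with a single row in the table. The ewes were in estrus, and 3 libraries of polyadenylated ovarian RNA came from Hu sheep, which are prized in China for bearing several lambs at a time, and 3 from Mongolian sheep, which mostly bear singletons. The labels give no age, treatment or genotype beyond the breed, and do not say whether the replicates were separate animals. The p-values therefore measure only the spread between these libraries, which may be technical. Triplets of values list replicates 1, 2 and 3 of a breed in order.

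A DEAD box helicase clamps on a short stretch of RNA and pries it apart locally, whereas a DEAH box helicase moves along a strand and pulls; both classes are named after the amino acids of their ATP-binding motif. Splicing uses a chain of them to rearrange the spliceosome, the nucleolus uses another set to fold and cut ribosomal RNA, and in the cytoplasm others help ribosomes start on an mRNA or hold and destroy it. In the ovary the family is best known for DDX4, a protein of germ cells, and for DDX6, which holds stored mRNAs in oocytes (known from mouse). DDX4 was not listed by symbol, and of 14 oocyte markers only ZP3 and GDF9 were listed, reaching 0.324 and 0 FPKM in Hu and 0.386 and 0.502 FPKM in Mongolian. Of the 14480 rows 10189 carry a symbol, so a marker or helicase not listed by symbol may lie in an unnamed row. The values below are those of ovarian tissue in which few oocyte markers were listed by symbol, at low levels. In such bulk tissue fewer cells of a type and less RNA per cell cannot be told apart.

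Levels are FPKM, the fragments assigned to a gene scaled by its length and by the library's total, so that genes can be compared with each other. Read counts were not used here and the sequencing depth is unknown. The libraries listed between 6500 (Hu 1) and 13342 (Hu 3) of the 14480 genes above 0, with Hu 2 at 7971 and the Mongolian libraries between 10547 and 11463. Genes that cells can hardly do without could be at 0, such as MTREX, the helicase of the nuclear exosome, in Hu 1 (2.51 and 5.25 FPKM in Hu 2 and Hu 3), so that a 0 is described only as listed at 0. Stromal markers (6 of 7 listed) summed to 946, 1138 and 1028 FPKM in Hu libraries, against 978, 944 and 876 FPKM in Mongolian libraries. Granulosa markers (6 of 9 listed) summed to 192, 26.5 and 83.5 FPKM in Hu libraries, against 55.9, 52.5 and 71.6 FPKM in Mongolian libraries. Most of the granulosa sum was INHA and INHBA. Of the 5 granulosa markers tested 3 had a higher and 2 a lower estimate in Hu. The lowest was HSD17B1, with 0, 0 and 0.629 FPKM in Hu and 3.69, 2.46 and 6.52 FPKM in Mongolian. Summed endothelial markers (6 of 6 listed) ran from 14.8 to 21.95 FPKM in Hu and from 5.14 to 12.1 in Mongolian, theca and luteal markers (6 of 6) from 16.7 to 87.9 in Hu and from 19.8 to 105 in Mongolian. Leukocyte markers (5 of 8) ran from 6.14 to 20.2 in Hu and from 7.51 to 42.4 in Mongolian. Of the 2 leukocyte markers tested, CD68 overlapped between the breeds. PTPRC measured 1.22, 0 and 1.36 FPKM in Hu, below the 2.15, 3.96 and 3.87 FPKM in Mongolian. Surface epithelium markers (4 of 5 listed) summed to 0.768, 0 and 11.3 FPKM in Hu libraries, against 3.55, 3.86 and 29.6 FPKM in Mongolian libraries, nearly all of it KRT8, and 0 of 4 red cell markers were listed. The part of these cell types in the helicase values was not tested.

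The helicase genes were listed above 0 in most libraries, at moderate levels. All 43 were listed above 0 in Hu 3, 32 in Hu 2 and 31 in Hu 1, against 42, 43 and 40 in the Mongolian libraries. Their mean over the 6 libraries ran from 0.558 FPKM (DHX58) to 30.8 FPKM (DDX17) with a median of 4.73; 3 genes averaged at least 20 FPKM, 17 between 5 and 20, and 23 less than 5. Summed over the family, expression was 153, 169 and 452 FPKM in Hu and 270.1, 257 and 309 FPKM in Mongolian. Both extremes were Hu libraries, and the Mongolian sums lay between them.

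**Figure D1:**
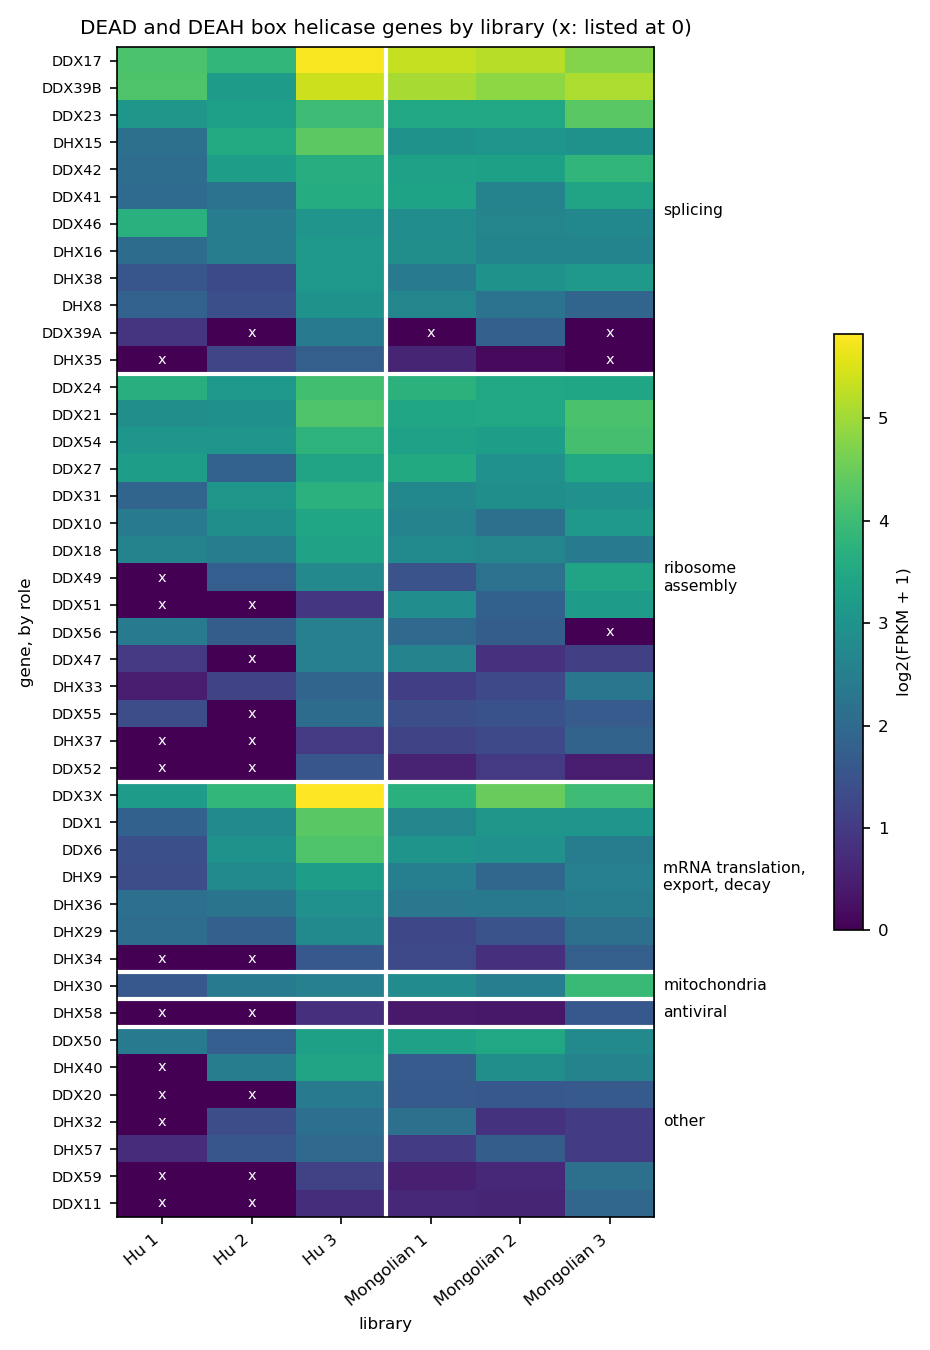
Level of each of the 43 helicase genes (rows, grouped by role) in the 6 libraries (columns, Hu left of Mongolian), as log2(FPKM + 1) in color, with x for a gene listed at 0. Hu 3 is the brightest column and holds no x, and 8 genes carry an x in both Hu 1 and Hu 2.

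The test was limited to genes that reached 0.5 FPKM in 3 or more of the 6 libraries, which kept 41 of the 43 helicases among 9971 genes in all. None of the 41 reached 0.5 FPKM in 1 breed only. The median FPKM of these 41 was 2.56, 3.65 and 7.68 in Hu libraries, against 5.37, 4.67 and 5.18 in Mongolian libraries. That of all genes tested was 1.04, 2.22 and 5.06 in Hu libraries, against 3.34, 3.11 and 3.88 in Mongolian libraries, so the helicases followed the library as a whole. Ranked within each library, which needs no scaling, the median helicase stood at percentile 64.9, 62.6 and 63.4 of all genes tested in Hu libraries, against 65.8, 63.7 and 59.7 in Mongolian libraries. The family's place among the other genes thus differed little between libraries, while its median FPKM ran from 2.56 to 7.68.

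**Figure D2:**
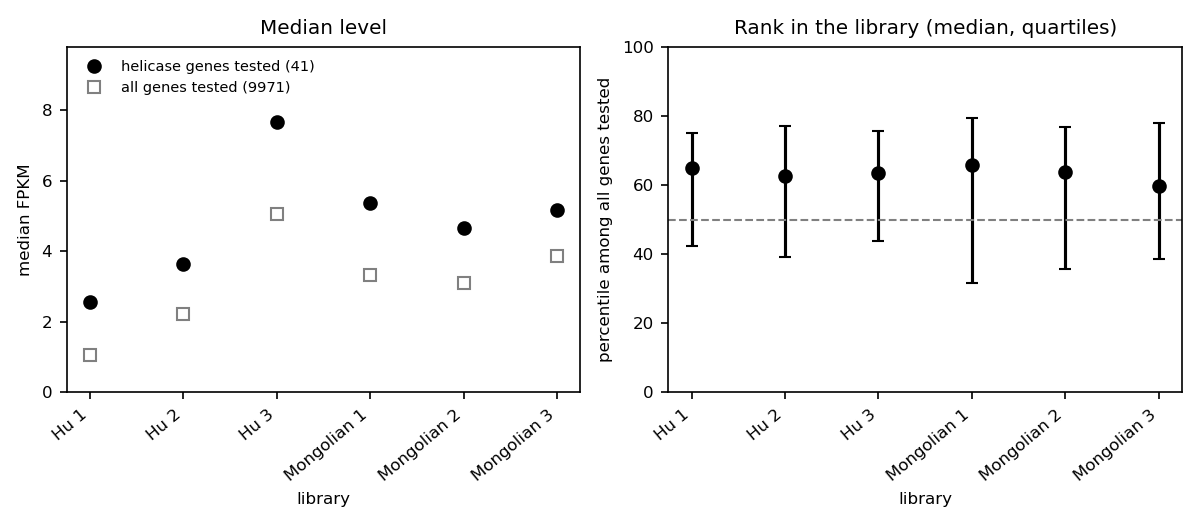
Left, median FPKM of the 41 helicase genes tested and of all 9971 genes tested in each library; right, the percentile of the helicase genes among all genes tested in that library (point: median; bars: quartiles). The medians on the left run from 2.56 to 7.68 FPKM, whereas those on the right stay between 59.7 and 65.8.

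Hu 3 gave the highest value of the 3 Hu libraries in 40 of the 41 genes (97.6%), DDX46 being the exception, where this held for 75.4% of all genes tested. It was the highest of all 6 libraries in 24 helicases (58.5%) and in 45% of all genes. Conversely Hu 1 lay below all 3 Mongolian libraries in 31 helicases (75.6%, against 57.5% of all genes) and Hu 2 in 24 (58.5%, against 42.6%). In 20 genes both Hu 1 and Hu 2 lay below every Mongolian library, and in 9 of these Hu 3 lay above every Mongolian library. The 20 genes are 48.8% of the helicases tested, against 32% of all genes. Taken alone, Hu 3 lay above every Mongolian library in 25 helicases (61%), against 50.1% of all genes. The pattern of the 9 was not counted over all genes. Smooth muscle markers (5 of 5 listed), of which Hu 3 was the highest library in 4, summed to 551, 664 and 1323 FPKM in Hu libraries, against 860, 666 and 828 FPKM in Mongolian libraries. MYH11, the smooth muscle myosin heavy chain, was the exception, with 105, 110.2 and 176 FPKM in Hu libraries, all below the 224, 195 and 303 FPKM in Mongolian libraries. The part of smooth muscle in the helicase values was not tested.

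Replicates of the Hu breed were thus much further apart than those of the Mongolian breed. On the log2(FPKM + 1) scale the median SD of a helicase was 0.81 in Hu and 0.39 in Mongolian, against 0.91 and 0.53 over all genes tested, and 34 of the 41 genes (82.9%, against 74.7% of all genes tested) had the larger SD in Hu. Among the 43 helicases, and not counted over all genes, the Mongolian libraries lay within 1.5-fold of each other in 12 and the Hu libraries in 0. DDX20, a component of the SMN complex that loads spliceosomal RNAs with their proteins, shows this most plainly, with 0, 0 and 4.33 FPKM in Hu libraries, against 2.16, 2.05 and 2.16 FPKM in Mongolian libraries. Its Mongolian values differed by 1.05-fold at most, whereas in Hu it was listed at 0 in replicates 1 and 2 and stood highest of all in replicate 3.

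The breed comparison asked which of these genes differ between ovaries of the prolific Hu and the Mongolian ewes. No helicase passed the test. After Benjamini-Hochberg adjustment over all genes the limma p was under 0.05 for 0 of the 41, in a comparison where it was so for 0% of all genes, and the adjusted p of the 41 lay between 0.998 and 0.9998. At an unadjusted p under 0.05 there was 1 gene, DDX51, lower in Hu (2.44% of the 41, against 2.82% of all genes tested that were lower in Hu), and 0 were higher (0.913% of all genes). The log2 difference, Hu minus Mongolian on log2(FPKM + 1), was positive in 16 genes (39.0%, against 32.3% of all genes tested) and negative in 25. Its median was -0.31, and that of all genes tested was -0.28. With 1 library left out the number of positive differences ran from 5 without Hu 3 (12.2%, against 18.1% of all genes) to 19 without Hu 1 (46.3%, against 50.8%). After quantile normalization it was 22 (53.7%, against 51.3%).

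What these libraries could show was limited. The 95% confidence interval of a helicase's log2 difference reached between 1.18 and 1.84 to either side, with a median of 1.39, and in 40 of the 41 genes it included 0. It exceeded 1 in every gene tested, and a p that misses the threshold does not show that the breeds were alike. Apart from DDX51, estimates ran from -1.11 (DHX37) to 0.98 (DDX56), 39 of the 41 being smaller than 1 in size.

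**Figure D3:**
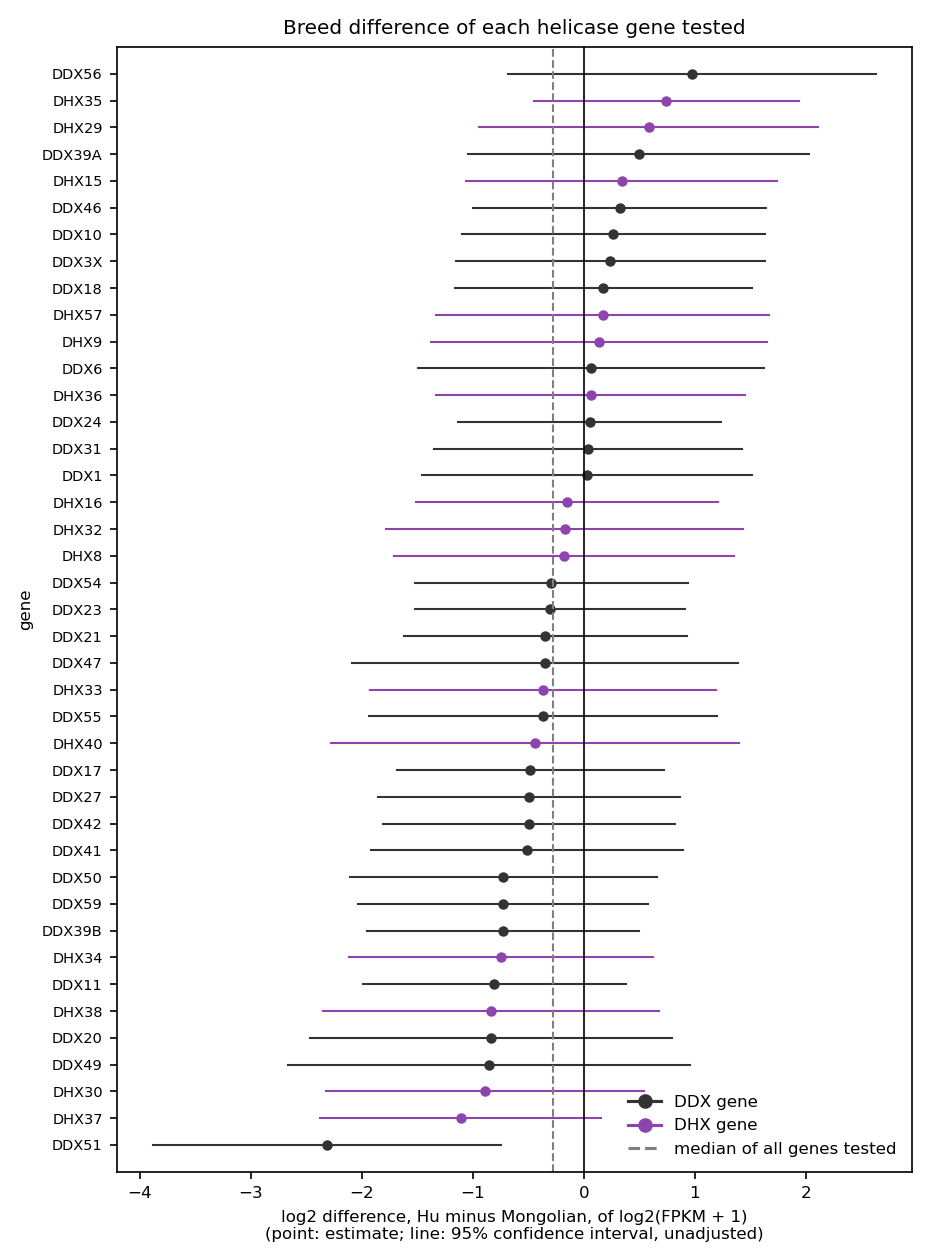
Log2 difference (Hu minus Mongolian, horizontal axis) of the 41 helicase genes tested, in order of the estimate, with unadjusted 95% confidence intervals; DDX and DHX genes in different colors, and the median of all genes tested as a dashed line at -0.28. Only the interval of DDX51 stays clear of 0.

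In 2 genes all Hu values lay below all Mongolian values (4.88% of the 41, against 6.05% of all genes tested), and in 0 genes above them (1.88% of all genes). Both belong to ribosome assembly in the nucleolus. DDX51, which is needed for maturation of the large subunit's RNA, measured 0, 0 and 0.885 FPKM in Hu libraries, against 6.27, 2.495 and 8.15 FPKM in Mongolian libraries. Its highest Hu value lay well below its lowest Mongolian value, and it was listed at 0 in Hu 1 and Hu 2. The log2 difference was -2.32 (SE 0.74, 95% confidence interval from -3.88 to -0.75; limma unadjusted p = 0.00648, adjusted p = 0.998). DHX37, which releases the small nucleolar RNA that guides processing of the small subunit and is mutated in human disorders of gonad development, measured 0, 0 and 0.993 FPKM in Hu libraries, against 1.27, 1.45 and 2.61 FPKM in Mongolian libraries. These were low levels, with Hu 3 just under the Mongolian values, and the log2 difference was -1.11 (SE 0.59, interval from -2.38 to 0.15; limma unadjusted p = 0.0809, adjusted p = 0.998). Within a library, with genes at 0 sharing a rank, DDX51 stood at percentile 19.5, 12.9 and 6.91 of all genes tested in Hu libraries, against 70.4, 42.2 and 73.6 in Mongolian libraries. Its percentiles in Hu 1 and Hu 2 are those shared by all genes at 0. They depend on how many genes are at 0 and cannot be compared with the others. The part of the number of genes listed in the level of DDX51 was not tested.

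The most abundant members were DDX17, DDX39B and DDX3X, the only ones with a mean of at least 20 FPKM. DDX17, a helicase of alternative splicing and of microRNA processing that also acts as a coregulator of steroid receptors, measured 17.1, 13.5 and 53.8 FPKM in Hu libraries, against 38.9, 35.8 and 25.7 FPKM in Mongolian libraries (28.1 ± 22.3 and 33.5 ± 6.93, mean ± SD, n = 3 each). Hu 1 and Hu 2 lay below every Mongolian library and Hu 3 above every one, and the log2 difference of -0.48 (SE 0.57, interval from -1.69 to 0.72) was smaller than that spread. DDX39B, which loads export factors on spliced mRNA, measured 17.6, 8.31 and 40.8 FPKM in Hu libraries, against 32.4, 27.5 and 33.7 FPKM in Mongolian libraries (22.2 ± 16.7 and 31.2 ± 3.27). The Hu libraries again surrounded the Mongolian ones, which lay close together, and the log2 difference was -0.73 (SE 0.58, interval from -1.96 to 0.50).

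DDX3X, the X-linked helicase that helps ribosomes scan structured leaders, measured 8.18, 13.6 and 55.8 FPKM in Hu libraries, against 11.97, 21.3 and 15.02 FPKM in Mongolian libraries (25.9 ± 26.1 and 16.1 ± 4.76). A single library, Hu 3, raised its Hu mean above the Mongolian one, and the log2 difference was 0.24 (SE 0.65, interval from -1.15 to 1.63); without Hu 3 it was -0.53 and without Hu 1 0.79. DDX3X was also the member whose share of the family's summed FPKM varied most in absolute terms among the abundant ones, at 5.36%, 8.06% and 12.3% in Hu libraries, against 4.43%, 8.29% and 4.86% in Mongolian libraries. DDX17 held 11.2%, 8.02% and 11.9% of the family's sum in Hu libraries, against 14.4%, 13.9% and 8.3% in Mongolian libraries. These shares do not depend on the scaling between libraries, and the breeds overlapped in all of them.

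**Figure D4:**
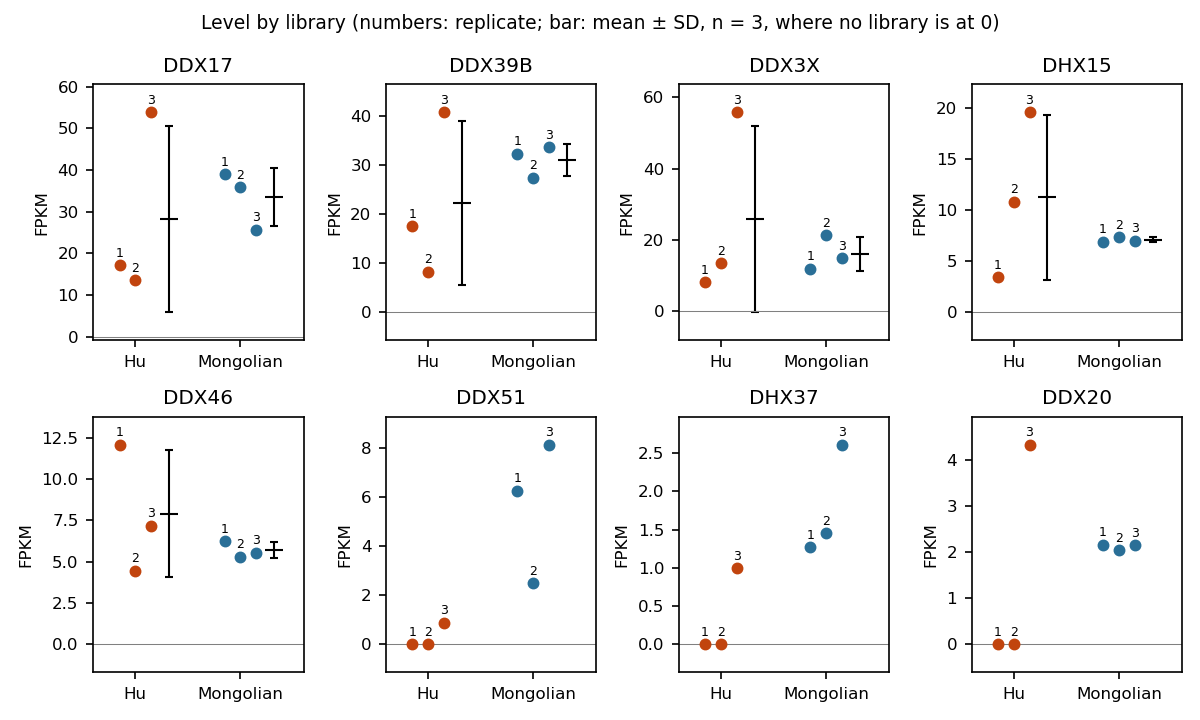
FPKM by library (vertical axis) of 8 helicase genes in Hu (left of each panel) and Mongolian (right), with the replicate number above each point and the mean ± SD (n = 3) beside it where no library was at 0. In DDX17 and DDX39B the Hu points lie on both sides of the Mongolian points, and in DDX51 and DHX37 they lie below them.

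Helicases of the spliceosome made up 12 members, all tested; 4 had a positive and 8 a negative log2 difference, with a median of -0.24, and 0 passed the test. After quantile normalization 6 were positive, and without Hu 3 2 were. DDX23, which swaps snRNAs at the 5′ splice site, measured 7.43, 8.83 and 14.97 FPKM in Hu libraries, against 10.1, 10.2 and 19.2 FPKM in Mongolian libraries. DHX15, which takes spent spliceosomes apart, measured 3.41, 10.8 and 19.6 FPKM in Hu libraries, against 6.89, 7.37 and 7.01 FPKM in Mongolian libraries. Its Mongolian values were nearly equal (1.07-fold between the highest and the lowest) while its Hu values spanned 5.74-fold, on both sides of them. DDX42, a partner of the complex that recognizes the branch site, measured 3.22, 8.58 and 11.5 FPKM in Hu libraries, against 9.06, 8.91 and 13.2 FPKM in Mongolian libraries, and DDX41, mutated in inherited human leukemia, measured 3.08, 3.65 and 11.3 FPKM in Hu libraries, against 9.48, 5.09 and 9.64 FPKM in Mongolian libraries. In both genes Hu 1 was lowest of all libraries and Hu 3 lay among or above the Mongolian ones.

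DDX46, which remodels the early spliceosome at the branch site, departed from the family's pattern, at 12.1, 4.47 and 7.18 FPKM in Hu libraries, against 6.23, 5.31 and 5.55 FPKM in Mongolian libraries. Hu 1 was highest of all 6 libraries, which held for no other helicase tested, and only DDX39B and DDX17 had a higher FPKM there. Its log2 difference was 0.32 (SE 0.62, interval from -0.998 to 1.64). DHX16, which prepares the spliceosome for its first catalytic step, measured 3.19, 4.48 and 7.94 FPKM in Hu libraries, against 6.34, 5.21 and 5.18 FPKM in Mongolian libraries, DHX38, which acts before the next step, measured 1.94, 1.49 and 7.68 FPKM in Hu libraries, against 4.31, 6.78 and 7.69 FPKM in Mongolian libraries, and DHX8, which frees the spliced mRNA, measured 2.56, 1.69 and 6.91 FPKM in Hu libraries, against 5.39, 3.64 and 2.71 FPKM in Mongolian libraries. These 3 had Hu 1 and Hu 2 below the Mongolian libraries and Hu 3 within or above them.

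The remaining spliceosomal members were scarce. DDX39A, a close copy of DDX39B with which it may share reads, so that both values are uncertain, measured 0.856, 0 and 4.24 FPKM in Hu libraries, against 0, 2.47 and 0 FPKM in Mongolian libraries. DHX35 measured 0, 1.31 and 2.42 FPKM in Hu libraries, against 0.526, 0.103 and 0 FPKM in Mongolian libraries, with a log2 difference of 0.74 (SE 0.56, interval from -0.45 to 1.94). Each was listed at 0 in 1 Hu library at least and in at least 1 Mongolian library, and the breeds overlapped in both.

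Ribosome assembly was the largest group, with 15 members, 14 of them tested. Besides DDX51 and DHX37 it included 7 genes with a mean above 5 FPKM and 6 scarcer ones; 5 of the 14 had a positive and 9 a negative log2 difference, with a median of -0.35, and 0 passed the test. After quantile normalization 8 were positive with a median of 0.14, and without Hu 3 2 were positive. DDX24 measured 11.6, 7.62 and 15.8 FPKM in Hu libraries, against 12.3, 10.2 and 9.94 FPKM in Mongolian libraries and was the most abundant, with a log2 difference of 0.053 (SE 0.56). DDX21, which couples transcription of ribosomal RNA to its processing, measured 6.35, 6.58 and 17.6 FPKM in Hu libraries, against 9.78, 10.1 and 16.7 FPKM in Mongolian libraries. DDX54, which also binds estrogen receptors and dampens their activity, measured 7.31, 7.19 and 12.5 FPKM in Hu libraries, against 9.16, 8.65 and 16.2 FPKM in Mongolian libraries. DDX54 was the steadiest member in Hu, its highest value being 1.74 times its lowest, and the breeds overlapped in all 3 genes.

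DDX27, a helicase of large-subunit maturation, measured 8.44, 2.54 and 9.64 FPKM in Hu libraries, against 10.6, 6.72 and 10.1 FPKM in Mongolian libraries, with Hu 2 alone well below the other 5 libraries. DDX31, a nucleolar protein, measured 2.72, 7.53 and 12.1 FPKM in Hu libraries, against 5.62, 6.51 and 6.74 FPKM in Mongolian libraries. DDX10 measured 4.16, 6.53 and 9.81 FPKM in Hu libraries, against 5.13, 3.41 and 7.93 FPKM in Mongolian libraries, and DDX18 measured 5.096, 4.51 and 9.22 FPKM in Hu libraries, against 5.95, 5.39 and 4.35 FPKM in Mongolian libraries. In DDX31, DDX10 and DDX18 Hu 3 was the highest of the 6 libraries, and their log2 differences were 0.037, 0.27 and 0.18, all smaller than their standard errors of 0.65, 0.64 and 0.63.

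Among the scarcer ribosome assembly genes, DDX56 had the highest log2 difference of the family, 0.98 (SE 0.78, interval from -0.68 to 2.63), with 4.19, 2.27 and 4.85 FPKM in Hu libraries, against 2.95, 2.31 and 0 FPKM in Mongolian libraries. Mongolian 3 was listed at 0 and the other Mongolian libraries lay within the Hu range; without Mongolian 3 the difference was 0.36. DDX49 measured 0, 2.36 and 5.72 FPKM in Hu libraries, against 1.797, 3.54 and 9.57 FPKM in Mongolian libraries, and DDX47 measured 0.951, 0 and 4.77 FPKM in Hu libraries, against 5.06, 0.773 and 1.16 FPKM in Mongolian libraries. DHX33 measured 0.3704, 1.31 and 2.72 FPKM in Hu libraries, against 1.101, 1.43 and 3.92 FPKM in Mongolian libraries, and DDX55 measured 1.59, 0 and 3.15 FPKM in Hu libraries, against 1.63, 1.75 and 2.19 FPKM in Mongolian libraries. In DDX47 and DDX49 the highest Mongolian library stood 6.55-fold and 5.33-fold above the lowest, and a Hu library was at 0. DDX52 was too low to test, at 0, 0 and 1.95 FPKM in Hu libraries, against 0.463, 0.984 and 0.384 FPKM in Mongolian libraries, with only Hu 3 and Mongolian 2 at 0.5 FPKM or more.

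Helicases that act on mRNA in the cytoplasm, or that were grouped with them, numbered 7, all tested; 6 had a positive log2 difference and 1, DHX34, a negative one, with a median of 0.063 and 0 passing the test. This is the role group with the largest share of positive differences, and in 6 of its 7 members Hu 3 was the highest library; without Hu 3, 1 of the 7 differences was positive and the median was -0.53. DDX6, which represses mRNAs and hands them to the decay machinery, measured 1.68, 6.83 and 17.6 FPKM in Hu libraries, against 7.08, 6.74 and 4.47 FPKM in Mongolian libraries, a log2 difference of 0.063 (SE 0.73, interval from -1.49 to 1.62). Its Hu values spanned 10.5-fold, the widest of the family among genes listed in all 3 Hu libraries. DDX1, part of the tRNA ligase complex, measured 2.51, 5.76 and 19.2 FPKM in Hu libraries, against 5.37, 7.44 and 7.41 FPKM in Mongolian libraries, with Hu 1 below and Hu 3 above every Mongolian value.

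DHX9, a nuclear and cytoplasmic helicase that resolves long duplexes, measured 1.59, 5.92 and 8.502 FPKM in Hu libraries, against 4.76, 2.82 and 4.77 FPKM in Mongolian libraries, a log2 difference of 0.14 (SE 0.71, interval from -1.37 to 1.65). DHX36, which unfolds G-quadruplexes, measured 3.38, 3.71 and 6.71 FPKM in Hu libraries, against 4.003, 4.102 and 4.49 FPKM in Mongolian libraries. DHX29, which helps the small ribosomal subunit scan, measured 3.26, 2.47 and 5.85 FPKM in Hu libraries, against 1.402, 1.81 and 3.43 FPKM in Mongolian libraries, a log2 difference of 0.58 (SE 0.72). In these 3 genes the breeds overlapped, and DHX36 was nearly flat in the Mongolian libraries. DHX34, which acts in nonsense-mediated decay, measured 0, 0 and 2.04 FPKM in Hu libraries, against 1.44, 0.725 and 2.404 FPKM in Mongolian libraries.

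DHX30, which works on RNA and translation in mitochondria, was the only mitochondrial member, with 2.05, 4.39 and 4.81 FPKM in Hu libraries, against 5.98, 4.67 and 14.3 FPKM in Mongolian libraries. Mongolian 3 stood far above the other 5 libraries, and the log2 difference was -0.89 (SE 0.67, interval from -2.32 to 0.54). DHX58, which tunes antiviral RNA sensing, was too low to test, at 0, 0 and 0.717 FPKM in Hu libraries, against 0.317, 0.296 and 2.02 FPKM in Mongolian libraries. The related sensor RIGI, once named DDX58 and so outside the rule, was as scarce, with 0.477, 0 and 0.761 FPKM in Hu and 0, 0 and 2.13 FPKM in Mongolian. Mongolian 3 was highest in both genes.

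The other 7 members, of various or less known roles, were all tested; 1 had a positive and 6 a negative log2 difference, with a median of -0.73, and 0 passed the test. Without Hu 1 3 of the 7 were positive, and without Hu 3 0 were. DDX50 is a paralog of DDX21, and the RefSeq sheep gene table places them next to each other with no protein-coding gene between, the only such pair of the family. DDX50 measured 4.28, 2.32 and 8.98 FPKM in Hu libraries, against 9.13, 10.3 and 5.93 FPKM in Mongolian libraries, with a log2 difference of -0.73 (SE 0.65) against -0.35 (SE 0.60) for DDX21. DHX40 measured 0, 4.56 and 9.51 FPKM in Hu libraries, against 2.23, 6.34 and 5.13 FPKM in Mongolian libraries, DHX32 measured 0, 1.604 and 3.34 FPKM in Hu libraries, against 3.47, 0.803 and 1.01 FPKM in Mongolian libraries, and DHX57 measured 0.659, 1.97 and 2.95 FPKM in Hu libraries, against 1.03, 2.29 and 1.05 FPKM in Mongolian libraries. The Hu values of DHX40 and DHX32 included the lowest library of all, Hu 1 at 0.

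DDX59 and DDX11 were among the scarcest members tested. DDX59 measured 0, 0 and 1.22 FPKM in Hu libraries, against 0.432, 0.595 and 3.41 FPKM in Mongolian libraries. DDX11, a DNA helicase involved in sister chromatid cohesion, measured 0, 0 and 0.697 FPKM in Hu libraries, against 0.579, 0.511 and 2.8001 FPKM in Mongolian libraries. Both shared a pattern with DDX51, DHX37, DHX34 and DDX20: they were listed at 0 in Hu 1 and in Hu 2 and above 0 in the other 4 libraries. These 6 genes are 14.6% of the helicases tested, and 17% of all genes tested were at 0 in both Hu 1 and Hu 2. Their log2 differences lay between -2.32 and -0.73. With Hu 1 and Hu 2 at 0, a gene passes the filter only if 3 of the other 4 libraries reach 0.5 FPKM. Values above 0 elsewhere and negative differences therefore follow largely from how these 6 genes were picked. Without Mongolian 3 the difference was -0.21 for DDX59 and -0.37 for DDX11, against -0.54 and -0.68 without Hu 1. For DDX20 it was -0.83 without Mongolian 3 and -0.44 without Hu 1. Hu 1 and Hu 2 were the libraries with the fewest genes listed, and the part of any library in these differences was not tested.

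Genes named DDX and those named DHX gave similar counts. Of the 26 DDX genes tested 10 had a positive and 16 a negative log2 difference, with a median of -0.35, and of the 15 DHX genes 6 and 9, with a median of -0.17. No test was made of this difference, and the DHX median turned to 0.16 after quantile normalization, to 0.22 without Hu 1 and to 0.029 without Mongolian 1. Libraries were compared by how they ordered the family. Across the 41 genes the Pearson correlation of log2(FPKM + 1) between a pair of libraries had a median of 0.79 within Hu, 0.80 within Mongolian and 0.80 between breeds, against 0.71, 0.76 and 0.73 over all genes tested. Mongolian 3 stood apart from the Hu libraries, at 0.61, 0.67 and 0.66 with Hu 1, Hu 2 and Hu 3, against 0.67, 0.68 and 0.68 over all genes tested. These are correlations across genes of shared libraries, given as a description. DDX17 ranked first or second among the helicases in all 6 libraries, while DDX39B ranked from first to sixth.

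The size of the median difference, and the sign of some genes, changed with the libraries used. The sign turned in 3, 6 and 11 helicases without Hu 1, Hu 2 and Hu 3. Without Mongolian 1, 2 and 3 it turned in 5, 1 and 3. Without Hu 3 the median log2 difference was -0.66, 5 of the 41 genes had a positive one, and 7 had a limma unadjusted p under 0.05, all lower in Hu (17.1%, against 14.7% of all genes): DDX17, DDX20, DDX39B, DDX51, DHX34, DHX37 and DHX38. Of these 0 passed after adjustment, as did 0.0401% of all genes. Without Hu 1 the median was -0.040, with 19 of 41 positive. Over all genes the medians without Hu 3 and without Hu 1 were -0.66 and 0.014, so the helicases moved with the rest. After quantile normalization, which gives every library the same distribution, the helicase median was 0.12 with 22 of 41 positive, and that of all genes was 0.019.

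When libraries were weighted by their estimated quality (limma array weights) 2 helicases were called, both lower in Hu, DDX51 and DDX39B, 4.88% of the 41 against 5.6% of all genes that were called lower in Hu. Their log2 differences were then -2.49 (SE 0.52, limma adjusted p = 0.0194) and -1.55 (SE 0.38, limma adjusted p = 0.0319). Over the alternatives tried the adjusted p ran from 0.0194 to 0.99997 for DDX51 and from 0.0319 to 0.99997 for DDX39B. Hu 2 carried a weight of 3.64 in that fit, whereas Hu 1 and Hu 3 carried 0.41 and 0.25. The sign of both genes was negative under every alternative, from -4.59 to -1.93 for DDX51 and from -1.78 to -0.20 for DDX39B.

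**Figure D5:**
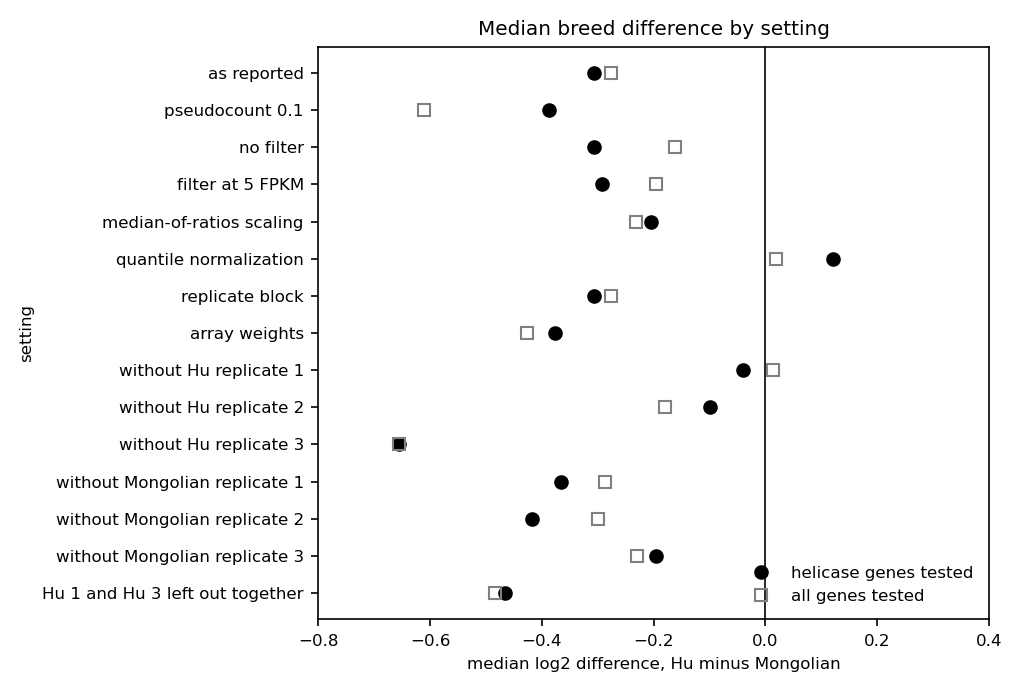
Median log2 difference (Hu minus Mongolian) of the helicase genes tested (filled circles) and of all genes tested (open squares) with the settings reported and under the alternatives. The alternative with rows of a symbol summed is not drawn. Both are at -0.66 without Hu 3 and above 0 after quantile normalization, and they lie farthest apart with a pseudocount of 0.1, at -0.39 for the helicases and -0.61 for all genes.

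Among genes that work beside these helicases 0 passed the test, as for 0% of all genes tested. Over all genes tested 32.3% had a positive log2 difference and the median was -0.28. An unadjusted limma p under 0.05 was seen in 2.82% of all genes with lower and 0.913% with higher values in Hu. For superfamily 2 and related helicases with other names, such as the translation factor EIF4A2, 23 symbols were searched, older names of some genes included. Of these 19 were listed and 16 tested. In limma 0 were called and 0 had an unadjusted p under 0.05. A positive log2 difference was seen in 6 and a negative one in 10, and the median was -0.44. The smallest unadjusted p belonged to SUPV3L1, a mitochondrial RNA helicase, with 0, 0 and 2.94 FPKM in Hu and 3.46, 3.38 and 0.907 FPKM in Mongolian (limma unadjusted p = 0.172, adjusted p = 0.998). Of 36 cofactors of the helicases, 32 were listed and 31 tested; 0 were called, 0 had an unadjusted p under 0.05, 11 had a positive and 20 a negative difference, and the median was -0.25. GPKOW, the activator of DHX16, came closest, with 0, 0.614 and 4.85 FPKM in Hu and 4.01, 5.65 and 6.34 FPKM in Mongolian (limma unadjusted p = 0.069, adjusted p = 0.998).

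Interferon response genes, which are induced together with DHX58 in infected cells, covered a wide range of levels. Of 24 such genes 15 were listed and 10 tested. In limma 0 were called, against 0% of all genes tested, and 0 had an unadjusted p under 0.05. A positive log2 difference was seen in 2 and a negative one in 8, where 32.3% of all genes tested had a positive one. The median was -0.22, against -0.28 over all genes tested. TRIM25, IRF9 and MX1 averaged 7.24, 6.98 and 5.65 FPKM over the 6 libraries, and the other listed members except IFI6 averaged less. IFI6, an interferon-induced mitochondrial protein, had the highest level, with 100.2, 71.5 and 64.1 FPKM in Hu and 140.1, 197 and 80.2 FPKM in Mongolian (limma unadjusted p = 0.136, adjusted p = 0.998). The breeds overlapped in Mongolian 3, and the log2 difference was -0.75.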

How the data were processed

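Ovarian polyadenylated RNA was sequenced as 3 SMARTer libraries from Hu and 3 from Mongolian ewes, per the labels' protocols. FPKM per gene was computed by the authors before they deposited it; the aligner, counting tool, build and filters were not given in the sources used here, and a table of lncRNAs was not used. Columns were matched to samples by the codes in the sample descriptions. The members and gene lists were chosen with earlier results of these data known. Low values showed no steps of whole reads (at most 0.566% of genes under 2 FPKM shared a ratio bin 0.2% wide), so depth is unknown and no count model was used. FPKM divides by the library total, so an abundant transcript lowers all others.

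Genes reaching 0.5 FPKM in 3 or more of 6 libraries were tested on log2(FPKM + 1), a scale that understates changes of low genes, with limma 3.58.1 in R 4.3.3 (eBayes with a trend, two-sided, breed as the only factor, Benjamini-Hochberg over 9971 genes; threshold 0.05). The code was tested on simulated data. Every member is given with its values. A log2 difference, standard error and interval were given to members whose breeds did not overlap or whose unadjusted p was under 0.05. They were also given to members with a mean of at least 20 FPKM and to DDX6 and DHX9. Others with a standard error or interval were chosen after their values were seen. Only DDX51 and DHX37 are given a p of their own from this fit. Of lists other than the cell type markers, the gene with the smallest p is given with that p. RIGI was named for its former symbol. Neighbours and symbols came from the RefSeq gene table of assembly ARS-UI_Ramb_v3.0, in which all 43 symbols were found. It holds 7 further symbols of the family (DDX4, DDX5, DDX19A, DDX25, DDX28, DDX43 and DDX53), which are not analysed here. No value above 0 was shared by any pair of libraries.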

Additional observations from a re-analysis of the deposited data

How the results depend on the processing

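No helicase was called (limma adjusted p under 0.05) with a pseudocount of 0.1, no filter, a filter at 5 FPKM (21 helicases left), median-of-ratios scaling, quantile normalization, rows of a symbol summed, any single library left out, or Hu 1 and Hu 3 left out together, a fit that assumes the lone Hu library to vary like the Mongolian ones. Array weights called 633 genes in all and 2 helicases. Over all genes 6 were called without Hu 1 and Hu 3, and from 0 to 4 with 1 library left out (2 without Hu 2, 4 without Hu 3). With the replicate number as a block 0 genes and 0 helicases were called, and the median log2 difference of the helicases stayed -0.31. Same-numbered libraries did not deviate together from their breed means (correlations across genes of -0.013, -0.030 and -0.18). With 3 libraries per breed this cannot exclude that the numbers pair the samples. The median of the helicases ran from -0.66 to -0.040 with 1 library left out. DDX51 kept its negative difference throughout. The cause of the changes below was not tested.

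Of the 41 helicases 21 kept their direction under every alternative and 20 turned under at least 1. With a pseudocount of 0.1 the log2 difference was -0.022 for DDX1 and -0.014 for DDX6. After quantile normalization it was 0.17 for DDX47, 0.17 for DDX55, 0.054 for DHX16, 0.16 for DHX32, 0.18 for DHX33 and 0.13 for DHX8. With array weights it was -0.13 for DDX1, -0.16 for DDX18, -0.38 for DDX24, -0.42 for DDX39A, -0.11 for DDX3X, -0.15 for DDX46, -0.089 for DHX36 and 0.011 for DHX40. Without Hu 1 and Hu 3 it was -0.18 for DDX1, -0.17 for DDX18, -0.45 for DDX24, -0.60 for DDX39A, -0.19 for DDX3X, -0.29 for DDX46, -0.14 for DHX36, 0.041 for DHX32 and 0.082 for DHX40.

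With 1 library left out, 19 turned. Their log2 differences then ran from -0.66 to 0.61 for DDX1, -0.096 to 0.35 for DDX18, -0.18 to 0.31 for DDX24, -0.79 to 0.0060 for DDX27, -0.37 to 0.54 for DDX31, -0.15 to 1.09 for DDX39A, -0.53 to 0.79 for DDX3X, -1.03 to 0.23 for DDX47, -0.82 to 0.21 for DDX55 and -0.61 to 0.79 for DDX6. Among DHX genes they ran from -0.16 to 0.95 for DHX15, -0.45 to 0.094 for DHX16, -0.65 to 0.41 for DHX32, -0.72 to 0.0091 for DHX33, -0.19 to 0.22 for DHX36, -1.16 to 0.54 for DHX40, -0.11 to 0.52 for DHX57, -0.63 to 0.15 for DHX8 and -0.25 to 0.69 for DHX9.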
